A study of Mus musculus with 7 samples.

Results

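The genes described here take up, make, carry and break down retinoids, the vitamin A derivatives, in the mouse uterus. They are Stra6, Rbp4, Rdh10, Dhrs3, Aldh1a1, Aldh1a2, Aldh1a3, Crabp2 and Cyp26a1, 9 of the 24964 gene symbols listed. They were chosen by symbol for their place in the pathway, and the pathway was chosen because Stra6 had the most negative log2 difference among the genes tested. For this reason the differences between the groups are given for these 9 genes as a description, with no p-value, and nothing is supported with them. RNA from uterus of mice 12 weeks old was sequenced in 7 libraries, and the estrous stage is given as diestrus for all of them. The 3 controls, numbered 1, 2 and 4, had the genotype Pgrcre/+. The other 4 libraries, numbered 1 to 4, had the genotype Pgrcre/+Foxl2LsL/+. All 7 libraries thus share a heterozygous allele in which Cre recombinase is expressed from the progesterone receptor gene, so that Cre acts in cells that have used this gene. The labels do not spell out LsL, which in mouse genetics commonly stands for a stop sequence that Cre removes. They do not say which animal each library came from or whether animals were pooled, so the tests measure the spread between these libraries, which may be technical in part.

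Retinol reaches tissues in the blood bound to the protein RBP4 and enters cells through the membrane receptor STRA6. Inside the cell RDH10 oxidises retinol to retinal, DHRS3 turns retinal back to retinol, and the retinal dehydrogenases ALDH1A1, ALDH1A2 and ALDH1A3 oxidise retinal to retinoic acid. CRABP2 delivers retinoic acid to nuclear receptors of the RAR and RXR families, which bind DNA at pairs of short direct repeats, and CYP26A1 breaks retinoic acid down. In the uterus, retinoic acid synthesis and CRABP2 are known to respond to ovarian steroids, and retinoid signalling takes part in the growth and decidualisation of the endometrium.

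Values are FPKM, fragments scaled to gene length and to the number of fragments in the library, so levels can be compared between genes as far as the listed lengths hold. These lengths were below the exon bases in GENCODE M21 for each of the 9 genes but Aldh1a2. For Rdh10 they were 2295 against 4160 bases, for Stra6 3642 against 5829 and for Dhrs3 2576 against 2927. The effect of the length on the order of the genes was not tested. Differences are given on the log2(FPKM + 1) scale, as libraries labelled Foxl2LsL minus controls, and understate the change of genes with low values. The libraries held 35547478 to 51721978 fragments on the listed genes, as recovered from the steps of the FPKM values, and at least 57 fragments lay on each of the 9 genes in every library. An adjusted p under 0.05 (limma, Benjamini-Hochberg) was reached by 40.6% of the 13334 genes that could be tested. Of the genes that passed, 41.1% were higher in the libraries labelled Foxl2LsL, a share that was 50.4% with median centring and 52.3% with limma-voom on the recovered fragments. Foxl2 itself was at 11.1, 19.3 and 12.9 FPKM in controls 1, 2 and 4 and at 12.7, 14.3, 14.8 and 17.2 FPKM in the libraries labelled Foxl2LsL 1 to 4. The groups overlapped and the log2 difference was 0.06 (SE 0.18), so the table does not show the label in the level of this gene. Every direction below is therefore given for the libraries as labelled. Epithelial, stromal and smooth muscle markers were high in every library (lowest sums of 5 genes each 528, 898 and 540 FPKM). Of the 5 gland markers, Foxa2 and Cxcl15 passed the filter on low values, while Prss28, Prss29 and Spink1 did not. Control 4 lay apart from controls 1 and 2 on the second principal component of log2(FPKM + 1), at -31.9 against 25.2 and 8.53. In bulk RNA, fewer cells of a type and less RNA per cell cannot be told apart.

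All 9 genes had a mean of at least 1 FPKM over the 7 libraries and were tested. In the libraries labelled Foxl2LsL, 3 were lower past the threshold (Stra6, Aldh1a1 and Aldh1a2), 3 were higher (Rbp4, Rdh10 and Crabp2), and 3 did not pass (Dhrs3, Aldh1a3 and Cyp26a1). The background over all tested genes was 23.9% lower and 16.7% higher, and since the contrast helped to choose the genes, nothing is read from their count. The same 6 genes had groups that did not overlap, beside 47.6% of all genes tested. The median log2 difference of the 9 genes was -0.18, and that of all tested genes was -0.05. Leaving out control 4 added Aldh1a3 to the genes past the threshold, with 7 of 9 passing, and each other omission of 1 library removed Rbp4, with 5 of 9 passing. Without control 4 and the libraries labelled Foxl2LsL 2 and 3, which had the most adipocyte marker signal, 8 of 9 passed.

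**Figure D1:**
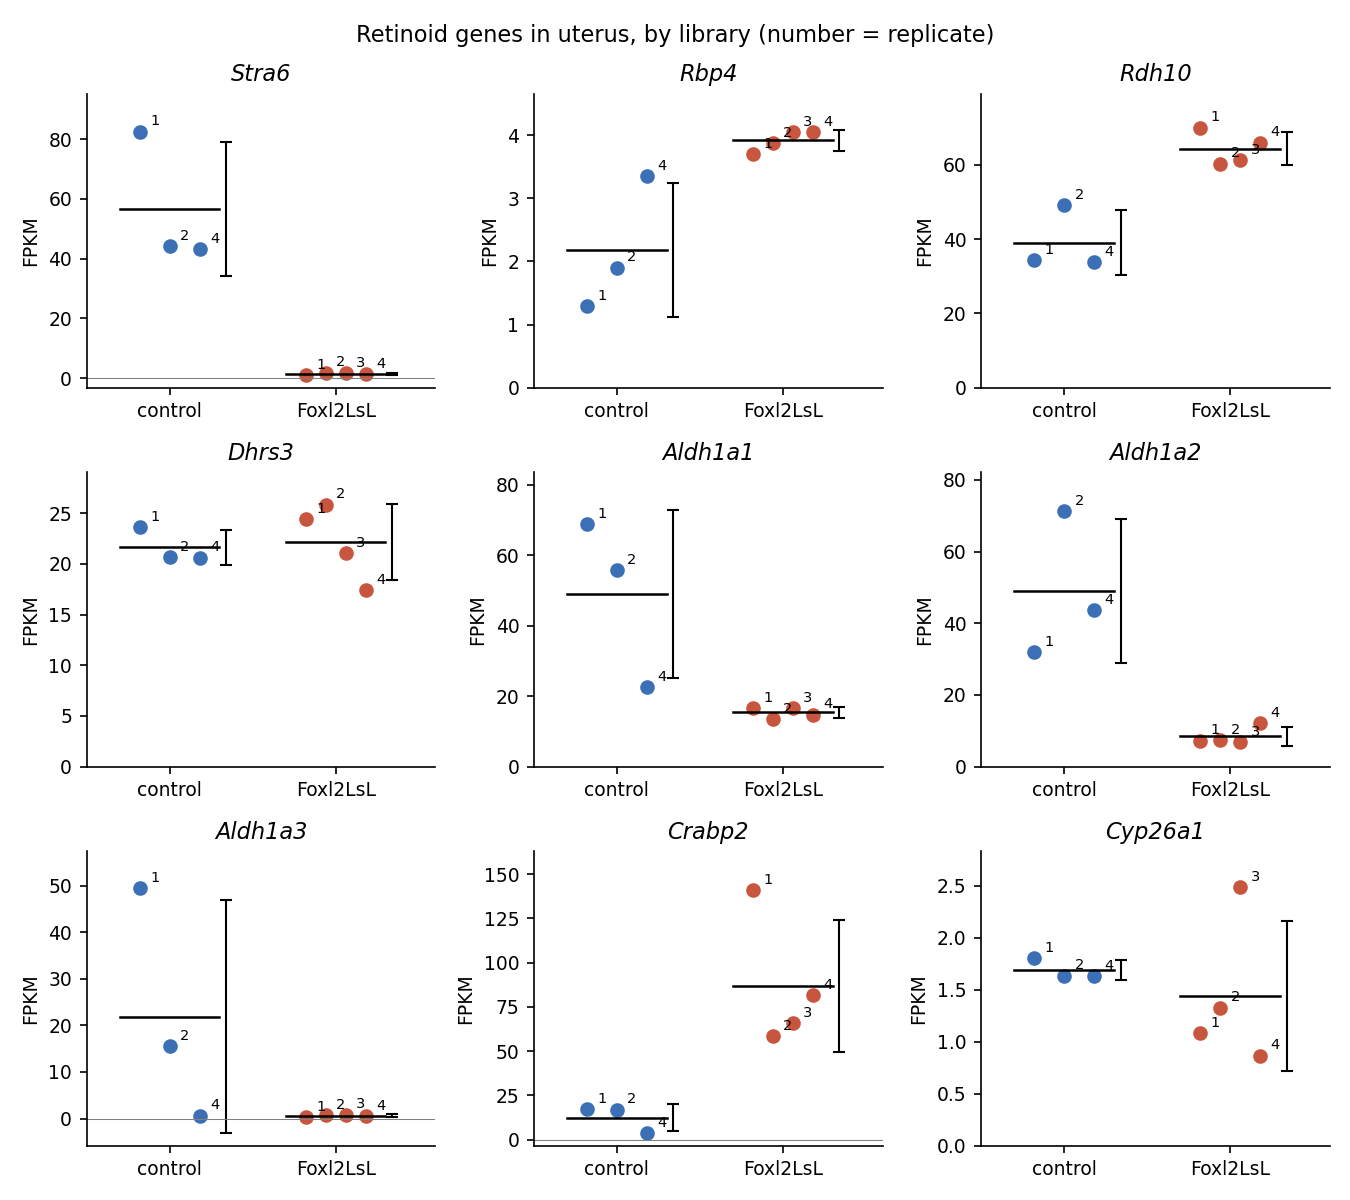
FPKM of the 9 retinoid genes in each library, with 1 panel per gene and the replicate number beside each point. Horizontal lines are group means and the bars beside them are 1 SD (n = 3 controls and n = 4 libraries labelled Foxl2LsL). Stra6 lies between 43.3 and 82.6 in controls and between 0.851 and 1.79 in the other group, while control 4 lies among the libraries labelled Foxl2LsL for Aldh1a3.

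In control uterus the highest mean levels per length among the 9 were those of Stra6, Aldh1a1, Aldh1a2 and Rdh10. Mean levels over the 3 controls were 56.7 ± 22.4 FPKM for Stra6, 49.1 ± 23.9 for Aldh1a1, 49.0 ± 20.2 for Aldh1a2 and 39.1 ± 8.66 for Rdh10 (SD, n = 3). Aldh1a3 followed at 21.9 ± 25.1 FPKM, Dhrs3 at 21.6 ± 1.72, Crabp2 at 12.5 ± 7.81, Rbp4 at 2.18 ± 1.06 and Cyp26a1 at 1.69 ± 0.0993. Of the 8 neighbouring pairs in this order, the ranges were separate in 2, Dhrs3 above Crabp2 and Crabp2 above Rbp4. Neighbours among the first 6 genes are therefore not separated by these libraries. At the listed lengths, Stra6, Aldh1a2 and Rdh10 were each above Dhrs3 in all controls. Their lowest values were 43.3, 32.0 and 33.9 FPKM, against a highest of 23.6 for Dhrs3. The spread between controls was wide for most of the 9. The coefficient of variation of FPKM was 115% for Aldh1a3, 62.4% for Crabp2, 48.6% for Aldh1a1 and 48.5% for Rbp4, against a median of 11.5% over all tested genes. Dhrs3 and Cyp26a1 lay below that median, at 7.98% and 5.87%. In the libraries labelled Foxl2LsL the order began with Crabp2 (86.8 ± 37.5 FPKM; SD, n = 4) and Rdh10 (64.4 ± 4.51). Stra6 stood eighth there at 1.42 ± 0.417 FPKM and Aldh1a3 last at 0.592 ± 0.276. In that group the ranges were separate in 5 of the 8 neighbouring pairs.

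Uptake is described first. Stra6 lies on chromosome 9 from 58063788 to 58153996 on the plus strand (these and later gene positions are from GENCODE M21 on GRCm38). Its level was 82.6 FPKM in control 1, 44.3 in control 2 and 43.3 in control 4. The level was 0.851, 1.79, 1.67 and 1.36 FPKM in the libraries labelled Foxl2LsL 1 to 4. The lowest control thus stood far above the highest library of the other group. The mean was 40.1 times as high in controls, and the log2 difference was -4.53 (SE 0.25). The next most negative log2 difference of any tested gene, that of Col7a1, was -4.23. Without 1 library at a time the log2 difference of Stra6 ranged from -4.69 to -4.23, and with a pseudocount of 0.1 it was -5.21. At least 203 fragments lay on Stra6 in each library, so the low level was measured and was not a value at the floor. Stra6l, a gene related to Stra6 that is listed here with retinol supply, averaged under 1 FPKM over the 7 libraries and was not tested. Its values were 1.42, 0.787 and 0.991 FPKM in controls 1, 2 and 4 and 0.370, 0.243, 0.176 and 0.259 FPKM in the other 4 libraries.

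Rbp4 (chromosome 19, 38116629 to 38125281, minus strand), the gene for the retinol carrier of blood, was low in every library. It was at 1.29, 1.90 and 3.35 FPKM in controls 1, 2 and 4 and at 3.69, 3.87, 4.05 and 4.05 FPKM in the libraries labelled Foxl2LsL 1 to 4. Control 4 was close below the lowest library of the other group, and the groups did not overlap. The log2 difference was 0.68 (SE 0.20). Its call was lost without control 1 (0.47), control 2 (0.64) or the libraries labelled Foxl2LsL 1 (0.70), 2 (0.68), 3 (0.67) or 4 (0.67), and with no filter on low values (0.68, with more genes tested). Adipocytes are known to make RBP4, and adipocyte markers differed between libraries. The summed FPKM of Adipoq, Plin1, Cidec, Lep and Fabp4 was 0.340, 4.04 and 49.2 in controls 1, 2 and 4 and 1.44, 67.9, 129 and 8.91 in the libraries labelled Foxl2LsL 1 to 4. Of these 5 genes 4 were tested, and each had a 95% interval of the log2 difference that included 0. The lowest sum of that group stood in library 1, where Adipoq was 0.409 FPKM and Rbp4 3.69 FPKM. Within the controls the order of Rbp4 was the order of the adipocyte sum. Without the 3 libraries of highest sum the log2 difference of Rbp4 was 0.92 and past the threshold, in a comparison of 2 against 2 libraries chosen after the values were seen. The part of adipocyte RNA in the Rbp4 level was not tested.

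Retinol is turned to retinal and back by enzymes acting in opposite directions, RDH10 and DHRS3. Rdh10 (chromosome 1, 16105774 to 16133734, plus strand) was at 34.3, 49.1 and 33.9 FPKM in controls 1, 2 and 4. The level was 70.0, 60.3, 61.2 and 66.0 FPKM in the libraries labelled Foxl2LsL 1 to 4, all above the highest control. The log2 difference was 0.72 (SE 0.14) and ranged from 0.63 to 0.90 without 1 library at a time. Dhrs3 (chromosome 4, 144892827 to 144928209, plus strand) was at 23.6, 20.6 and 20.6 FPKM in controls and at 24.4, 25.8, 21.1 and 17.4 FPKM in the other group. Its groups overlapped. The log2 difference of 0.02 (95% interval -0.29 to 0.34) did not pass, and it was below 0 without control 2 or 4 or without the library labelled Foxl2LsL 1 or 2 (down to -0.053). The ratio of Rdh10 to Dhrs3 in a library was 1.45 to 2.38 in controls and 2.33 to 3.79 in the other group, and these ranges overlapped.

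Of the retinal dehydrogenase genes, whose enzymes make retinoic acid, Aldh1a1 and Aldh1a2 were lower past the threshold and Aldh1a3 did not pass. The summed FPKM of Aldh1a1, Aldh1a2 and Aldh1a3 was 150, 143 and 66.8 in controls 1, 2 and 4. It was 24.1, 21.8, 24.2 and 27.5 in the libraries labelled Foxl2LsL 1 to 4. The sum of control 4 was under that of controls 1 and 2 and above all 4 libraries of the other group, and the sum was not tested.

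Aldh1a1 (chromosome 19, 20492715 to 20643465, plus strand) was at 68.9, 55.8 and 22.6 FPKM in controls 1, 2 and 4. The level was 16.6, 13.6, 16.6 and 14.8 FPKM in the libraries labelled Foxl2LsL 1 to 4, a narrow range that control 4 came near. The log2 difference was -1.47 (SE 0.33). Without control 4 it was -1.95, and without control 1 it was -1.16. Aldh1a2 (chromosome 9, 71215789 to 71296243, plus strand) was at 32.0, 71.3 and 43.6 FPKM in controls and at 7.23, 7.45, 6.79 and 12.2 FPKM in the other group. Here control 1, the highest for Stra6 and Aldh1a3, was the lowest control, and the groups were well apart. The log2 difference was -2.37 (SE 0.28), from -2.63 to -2.06 without 1 library at a time.

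Aldh1a3 (chromosome 7, 66390890 to 66427517, minus strand) varied most between controls. It was at 49.5, 15.5 and 0.619 FPKM in controls 1, 2 and 4, an 80.0-fold span within the group. The libraries labelled Foxl2LsL 1 to 4 were at 0.256, 0.776, 0.855 and 0.481 FPKM. Control 4 lay inside their range, so the groups overlapped. The log2 difference of -2.81 (SE 0.99) did not pass. It was -4.20 and past the threshold without control 4, and -1.72 without control 1. Aldh1a3 had a mean under 1 FPKM in the libraries labelled Foxl2LsL, so it passed the filter on low values only through controls 1 and 2.

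The makeup of the family also differed by library. Aldh1a1 held 45.8%, 39.1% and 33.8% of the summed FPKM in controls 1, 2 and 4 and 69.0%, 62.3%, 68.5% and 53.8% in the libraries labelled Foxl2LsL 1 to 4. Aldh1a2 held 21.3%, 50.0% and 65.3% in controls and 28.0% to 44.4% in the other group, which lay inside the range of the controls. Aldh1a3 held 32.9% in control 1, 10.9% in control 2 and 0.926% in control 4, against 1.06% to 3.56% in the other group. Controls thus differed in which gene led the family, Aldh1a1 in control 1 and Aldh1a2 in controls 2 and 4, and Aldh1a1 led in each library labelled Foxl2LsL.

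**Figure D2:**
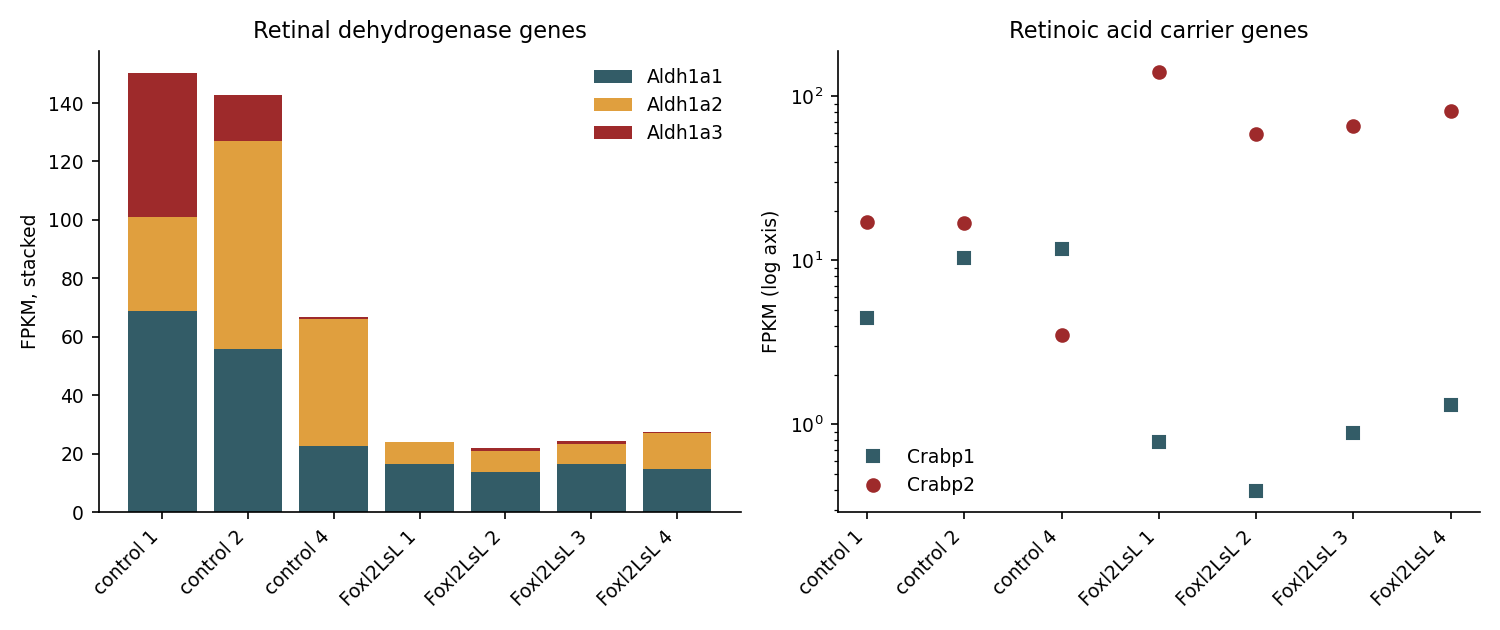
Left, FPKM of Aldh1a1, Aldh1a2 and Aldh1a3 stacked for each library. Right, FPKM of the carrier genes Crabp1 and Crabp2 for each library on a log axis. The stacked sum is 66.8 to 150 in controls and 21.8 to 27.5 in the libraries labelled Foxl2LsL, and Crabp2 is above Crabp1 in each library but control 4.

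Crabp2 (chromosome 3, 87948666 to 87953376, plus strand), which carries retinoic acid to its receptors, was higher in the libraries labelled Foxl2LsL. It was at 17.1, 16.9 and 3.51 FPKM in controls 1, 2 and 4 and at 141, 58.6, 65.7 and 81.7 FPKM in the libraries labelled Foxl2LsL 1 to 4. Control 4 was the lowest of the 7 and library 1 of the other group the highest. The log2 difference was 2.86 (SE 0.52), and its lowest value in the fits that left out a library was 2.20, without control 4. The related carrier gene Crabp1 was at 4.45, 10.4 and 11.7 FPKM in controls and at 0.780, 0.391, 0.886 and 1.30 FPKM in the other group. It fell, with a log2 difference of -2.35 (SE 0.30; limma, Benjamini-Hochberg adjusted p 0.00126). It passed the filter on low values only through the controls, and with no filter its adjusted p was 0.00355. Crabp2 over Crabp1 was a ratio of 3.86, 1.63 and 0.298 in controls 1, 2 and 4 and 181, 150, 74.2 and 62.6 in the libraries labelled Foxl2LsL 1 to 4.

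Cyp26a1 (chromosome 19, 37697798 to 37701536, plus strand) encodes an enzyme that clears retinoic acid, and the gene is a widely used read-out because retinoic acid induces it. Its promoter and that of Rarb, a retinoic acid receptor gene induced in the same way, hold a DR5 element, a pair of direct repeats with a spacer of 5 bases to which RAR and RXR bind. These elements are shown because they tie both genes to the product of the pathway. The sequences are from RefSeq (GRCm38.p6) and read 5′ to 3′ along the repeat, with the repeated half-sites in capitals.
Cyp26a1: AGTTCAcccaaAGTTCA
Rarb: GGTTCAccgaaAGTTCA
The Cyp26a1 element (chr19:37697776-37697792) lies on the strand opposite to the gene, and its first base along the gene stands 32 bases before the start of transcription in RefSeq. The Rarb element (chr14:16575513-16575529) lies on the strand of the gene, with its first base 53 bases before the start. The whole Cyp26a1 window (chr19:37697558-37697857, plus strand), with the half-sites in capitals as they stand on the gene's strand, is printed next to show the element in its place.
Cyp26a1 window: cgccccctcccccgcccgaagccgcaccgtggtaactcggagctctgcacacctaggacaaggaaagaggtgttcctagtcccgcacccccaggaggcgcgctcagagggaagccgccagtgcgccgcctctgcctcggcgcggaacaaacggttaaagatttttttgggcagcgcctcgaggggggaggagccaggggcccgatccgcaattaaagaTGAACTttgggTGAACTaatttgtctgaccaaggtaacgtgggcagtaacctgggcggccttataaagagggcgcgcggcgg
A DR5 was counted where half-sites of the usual purine, G, G or T, TCA form stood 5 bases apart on either strand. It was found in 0.0974% of 32851 windows reaching from 250 bases before to 50 after a start. Windows were listed for 6 of the 9 genes, 13 in all, and Cyp26a1 alone of these 6 held a DR5. Both strands were searched for each motif. Repeats spaced by 1 or 2 bases (DR1 and DR2) were in 0 of the 13, against 0.222% and 0.268% of all windows. The single half-site AGGTCA was in none of the 13 and in 16.3% of all windows. The variant AGTTCA, which is also part of both elements above, was in 2 of the 13 windows (Cyp26a1 and Stra6) and in 14.0% of all windows. The forkhead core TGTTTAC was in 2 of the 13 windows (Dhrs3 and Rbp4) and in 3.65% of all windows. A match describes these letters only and is not a measured site. Stra6 was the gene with the most negative log2 difference. Of the 4 windows listed for it, the one with the half-site (chr9:58133825-58134124, plus strand) is printed with AGTTCA in capitals. The first base of this half-site stands 15 bases after the start.
Stra6 window: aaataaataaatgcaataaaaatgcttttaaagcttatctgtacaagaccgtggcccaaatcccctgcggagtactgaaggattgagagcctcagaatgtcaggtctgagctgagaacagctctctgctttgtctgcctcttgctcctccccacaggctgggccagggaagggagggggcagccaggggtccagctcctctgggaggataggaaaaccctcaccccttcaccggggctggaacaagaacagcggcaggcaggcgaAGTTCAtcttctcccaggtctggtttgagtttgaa

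Cyp26a1 was at 1.81, 1.64 and 1.63 FPKM in controls 1, 2 and 4 and at 1.08, 1.33, 2.49 and 0.866 FPKM in the libraries labelled Foxl2LsL 1 to 4. Library 3 stood above all controls and the other 3 below them, so the groups overlapped. The log2 difference of -0.18 (95% interval -0.66 to 0.29) did not pass. At least 81 fragments lay on Cyp26a1 in each library. Rarb was at 1.37, 1.47 and 1.43 FPKM in controls and at 0.942, 1.44, 0.954 and 0.786 FPKM in the other group. Its log2 difference of -0.27 (95% interval -0.56 to 0.03; limma, Benjamini-Hochberg adjusted p 0.131) did not pass, and it was -0.36 and past the threshold without the library labelled Foxl2LsL 2 (adjusted p 0.0368). Both DR5 genes were thus low in all 7 libraries, and their intervals reach from falls to small rises. Cyp26b1, which encodes a related enzyme and is named although it lies outside the rule for naming genes, had overlapping groups and did not pass, with 0.684 to 2.90 FPKM in controls and 0.667 to 2.81 FPKM in the other group.

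**Figure D3:**
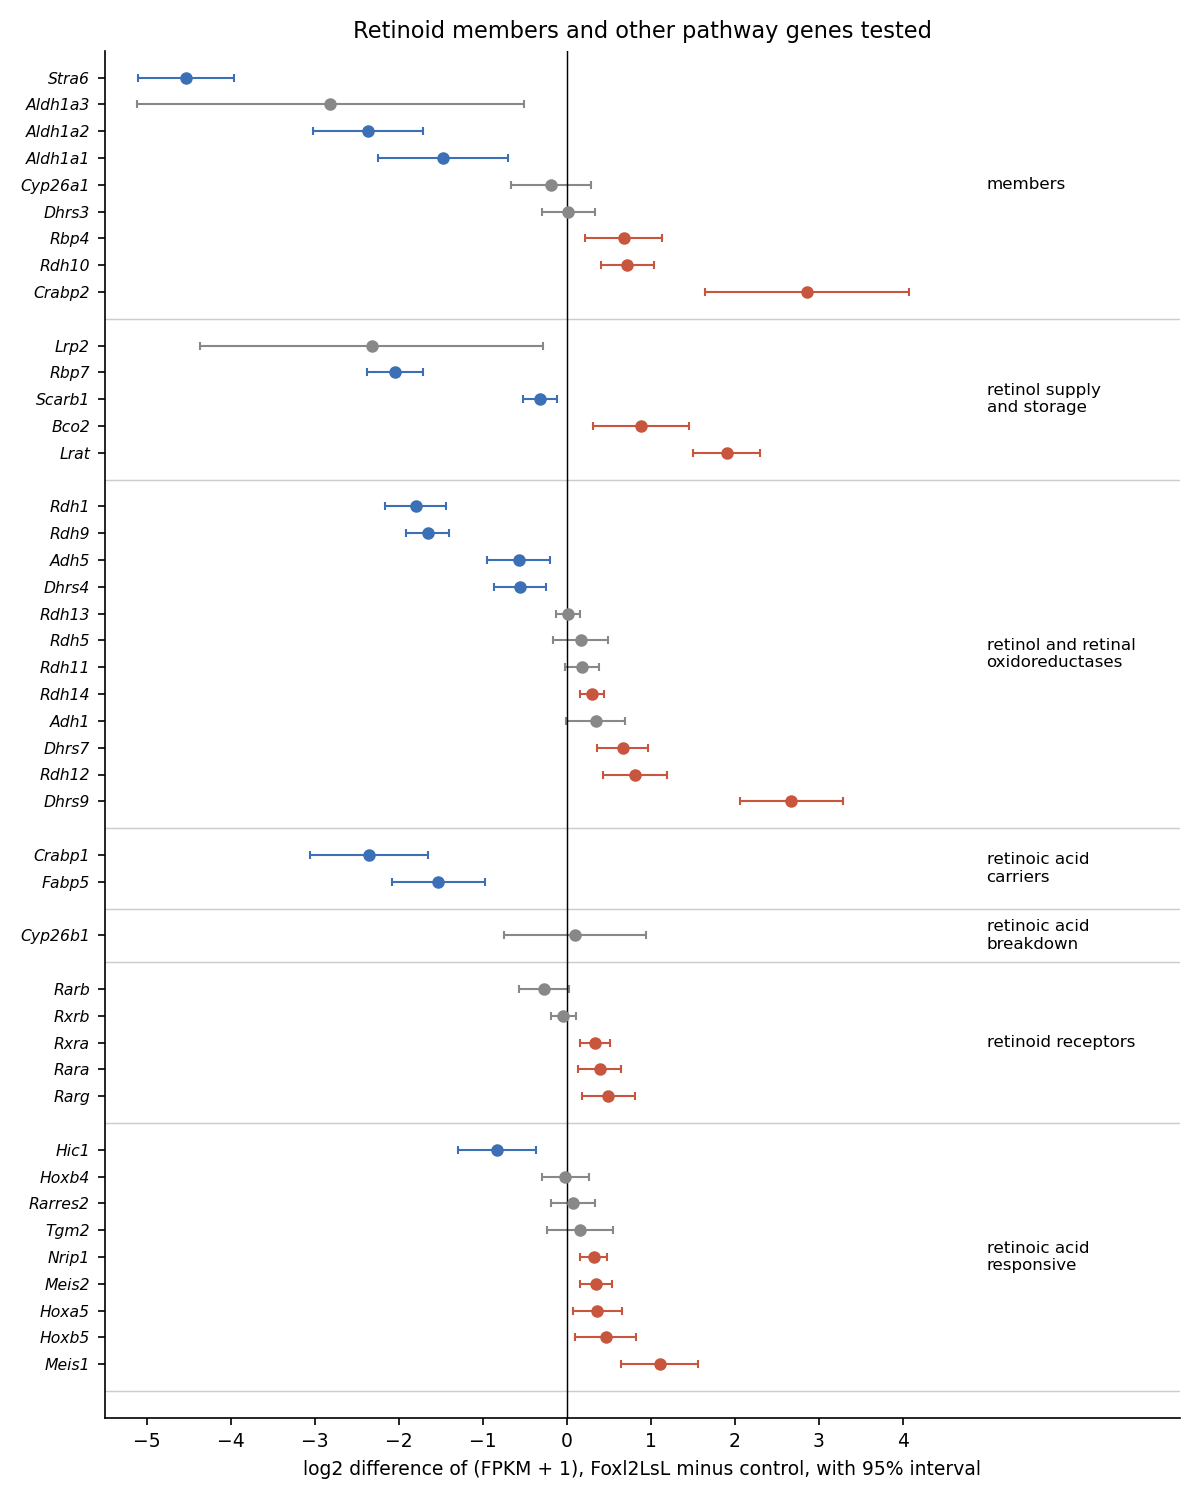
Log2 difference of (FPKM + 1), libraries labelled Foxl2LsL minus controls, with 95% intervals not adjusted for multiple tests, for the 9 retinoid genes and the 34 other pathway genes tested, by role. Red points are higher and blue points lower past the adjusted threshold, and grey points did not pass. The largest values on either side are those of Stra6 (-4.53) and Crabp2 (2.86).

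The rest of the pathway was taken from a list of 50 further genes, arranged by role, of which 34 passed the filter on low values. Of these, 14 were higher and 9 lower past the adjusted threshold, and 11 did not pass. Over all tested genes 16.7% were higher and 23.9% lower, and the counts by role below stand beside these shares. The share of the 34 that passed was 67.6%, beside 40.6% of all tested genes, and their median log2 difference was 0.17. With no filter on low values, 25 of 48 pathway genes passed, beside 27.6% of all genes tested. The list was chosen with earlier results of these data known, so nothing is read from these shares. For 7 of the 34 the mean was under 1 FPKM in 1 group, so they were tested only through the group in which they were higher. These were Lrat, Dhrs9 and Rdh12, low in controls, and Rbp7, Rdh1, Crabp1 and Lrp2, low in the other group. A gene that passes the filter in this way is more likely to differ, which limits what its p-value shows.

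Genes of retinol supply and storage moved both ways, with 2 of 5 tested higher and 2 lower. Lrat, whose enzyme stores retinol as retinyl esters, rose from 0.310, 0.778 and 0.254 FPKM in controls 1, 2 and 4 to 5.36, 4.19, 3.40 and 4.66 FPKM in the libraries labelled Foxl2LsL 1 to 4. The groups were far apart, and the log2 difference was 1.91 (SE 0.17; limma, Benjamini-Hochberg adjusted p 0.000368, or 0.00121 with no filter on low values). Rbp7, a cytoplasmic retinol-binding protein gene, had a mean of 6.70 ± 0.666 FPKM in controls and fell to 0.885 ± 0.304 FPKM in the other group (SD, n = 3 and n = 4), a log2 difference of -2.04 (limma, Benjamini-Hochberg adjusted p 0.000160, or 0.000672 with no filter). Scarb1, a lipoprotein receptor gene whose protein also takes up carotenoids, fell from a range of 15.6 to 17.5 FPKM in controls to a range of 11.4 to 14.3 FPKM in the other group (log2 difference -0.32; limma, Benjamini-Hochberg adjusted p 0.0222), and its groups did not overlap. Its call was lost without control 1 (-0.28) or the library labelled Foxl2LsL 4 (-0.33), with quantile normalization (-0.26) and with limma-voom (-0.27). Bco2, whose enzyme cleaves carotenoids, rose by a log2 difference of 0.89 (limma, Benjamini-Hochberg adjusted p 0.0246), though control 4 (1.73 FPKM) stood above the library labelled Foxl2LsL 1 (1.53 FPKM). That call was lost without control 1 (0.78) or 2 (0.81) or the library labelled Foxl2LsL 2 (0.82), 3 (0.81) or 4 (0.82). Lrp2, an endocytic receptor gene named after its values were seen, did not pass. It was at 0.814 and 2.74 FPKM in controls 1 and 2, at 34.7 in control 4 and at 0.118 to 0.453 FPKM in the other group. The mean FPKM of Lrp2 was 50.6 times as high in controls, mostly through control 4, and its log2 difference was -2.32.

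Of 12 tested genes for other retinol and retinal oxidoreductases, 4 were higher and 4 lower past the threshold. Dhrs9, whose enzyme can oxidise retinol, rose from 0.437, 1.71 and 0.449 FPKM in controls 1, 2 and 4 to 12.4, 7.28, 10.3 and 12.3 FPKM in the libraries labelled Foxl2LsL 1 to 4. Every library of that group was above every control, and the log2 difference was 2.67 (SE 0.26; limma, Benjamini-Hochberg adjusted p 0.000502, or 0.00168 with no filter). Rdh12, a retinal reductase gene best known from photoreceptors, rose from 0.841 ± 0.0376 to 2.29 ± 0.739 FPKM (log2 difference 0.81; limma, Benjamini-Hochberg adjusted p 0.00708, or 0.0128 with no filter). Rdh1 and Rdh9 fell, with log2 differences of -1.80 and -1.65 (limma, Benjamini-Hochberg adjusted p 0.000319 and 0.000155). With no filter the adjusted p of Rdh1 was 0.00118. Rdh1 went from 5.86 ± 1.45 to 0.949 ± 0.180 FPKM and Rdh9 from 6.30 ± 1.02 to 1.31 ± 0.120 FPKM. These close relatives may share reads, so their separate levels are uncertain.

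Both carrier genes of the list fell, Crabp1 as given above and Fabp5, a fatty acid-binding protein gene whose protein also carries retinoic acid. Fabp5 was at 5.46, 6.47 and 12.4 FPKM in controls 1, 2 and 4 and at 2.51, 1.96, 1.79 and 1.82 FPKM in the other group. Its groups did not overlap, and the log2 difference was -1.53 (SE 0.24; limma, Benjamini-Hochberg adjusted p 0.00246).

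Receptor genes differed less in size. Of 5 tested, 3 were higher past the threshold and the other 2 did not pass. Rxra rose from a mean of 14.2 ± 1.13 FPKM to 18.2 ± 0.782 FPKM (SD, n = 3 and n = 4), a log2 difference of 0.34 (limma, Benjamini-Hochberg adjusted p 0.0100). Rarg rose from 20.7 ± 3.40 to 29.7 ± 4.14 FPKM (log2 difference 0.50; limma, Benjamini-Hochberg adjusted p 0.0228) and Rara from 9.82 ± 1.57 to 13.1 ± 0.951 FPKM (0.39; adjusted p 0.0256). The call of Rarg was lost without control 2 (0.46) or 4 (0.41) or the library labelled Foxl2LsL 4 (0.47). That of Rara was lost without control 2 (0.43) or the library labelled Foxl2LsL 1 (0.37) or 4 (0.36). Rxrb, at 21.3 ± 1.35 and 20.7 ± 0.550 FPKM, did not pass (log2 difference -0.04, 95% interval -0.19 to 0.12). Its sign turned with median centring (0.014), quantile normalization (0.016), limma-voom (0.032) and without control 1 (0.012). Rarb is given above, and Rxrg was at most 0.119 FPKM in any library and was not tested.

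Among 14 genes described in other cells as responsive to retinoic acid, 9 were tested, 5 were higher and 1 was lower past the threshold. Meis1, a homeobox gene, rose from 34.7, 28.3 and 17.7 FPKM in controls 1, 2 and 4 to 54.6, 54.4, 60.4 and 58.9 FPKM in the libraries labelled Foxl2LsL 1 to 4, a log2 difference of 1.11 (SE 0.20; limma, Benjamini-Hochberg adjusted p 0.00415). Its groups did not overlap, and control 4 was again at an end of the control range. Hic1, a transcriptional repressor gene, fell from 10.7 ± 3.21 to 5.42 ± 0.852 FPKM (log2 difference -0.83; limma, Benjamini-Hochberg adjusted p 0.0144), and this call was lost without control 2 (-0.76). Hoxb5 and Hoxa5 rose by log2 differences of 0.46 and 0.37 (limma, Benjamini-Hochberg adjusted p 0.0465 and 0.0485), with overlapping groups. Both calls were lost without control 4 (0.28 and 0.29) and without any 1 of the libraries labelled Foxl2LsL (0.42 to 0.51 for Hoxb5, 0.33 to 0.41 for Hoxa5). That of Hoxb5 was also lost without control 2 (0.48) and that of Hoxa5 without control 1 (0.32). Both were lost with FPKM rescaled to a common sum (0.45 and 0.35) and with no filter on low values (0.46 and 0.37), and that of Hoxb5 with no intensity trend (0.46).

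The genes whose pattern over the 7 libraries was most like that of Stra6 were Dot1l, Rsrc1, Gstm7, Ubap2 and Mrpl49, with Pearson correlations of log2(FPKM + 1) of 0.996 to 0.997. The libraries fall into separate groups in all of them, so these values mostly restate the difference between the groups, and 1679 tested genes had a correlation above 0.9. Of the 5, Gstm7 had the largest log2 difference, -2.55, and Rsrc1 (-0.13) did not pass (limma, Benjamini-Hochberg adjusted p 0.108).

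Markers of cell types and of dividing cells differed between the same libraries. Their counts stand beside 16.7% higher and 23.9% lower past the threshold over all tested genes. The summed FPKM of the cell cycle genes Mki67, Top2a, Ccnb1, Cdk1 and Aurkb was 152, 126 and 64.1 in controls 1, 2 and 4 and 7.66 to 24.5 in the libraries labelled Foxl2LsL, and 5 of 5 fell. The order of the controls in this sum was also that of 6 of the 9 retinoid genes, Stra6, Dhrs3, Aldh1a1, Aldh1a3, Crabp2 and Cyp26a1, whose differences between the groups were not all of one sign. Controls 2 and 4 were nearly tied for Stra6 (44.3 and 43.3 FPKM), Dhrs3 (20.64 and 20.61) and Cyp26a1 (1.636 and 1.634). The share of all tested genes with this order was not counted, so nothing is read from it. The gland markers summed to 26.5 to 41.9 FPKM in controls and 4.67 to 6.98 FPKM in the other group, and both tested genes, Foxa2 and Cxcl15, fell. Their lowest control was control 1, in which Aldh1a2 was lowest among controls and Aldh1a1, Aldh1a3 and Stra6 were highest. Endothelial markers summed to 88.5 to 124 FPKM in controls and 56.5 to 63.4 FPKM in the other group, and 4 of 4 fell. Stromal sums were 898 to 1329 and 1395 to 1590 FPKM, with Dcn higher and Vim lower past the threshold among 5 genes. The higher sums of the second group rest on Dcn, whose mean was 411 FPKM in controls and 978 FPKM in that group. The log2 differences of Vim (-0.56), Col1a1 (-0.86) and Pdgfra (-0.29) were negative and that of Lum (0.29) was positive. Col1a1, Pdgfra and Lum did not pass. Epithelial sums overlapped, at 528 to 1094 and 864 to 1166 FPKM, and Krt18 alone of 5 genes was higher past the threshold. Smooth muscle sums overlapped too, at 540 to 1205 and 916 to 1285 FPKM, and Myh11 alone of 5 genes was higher past the threshold. The log2 differences of Acta2 (0.53), Des (0.20), Cnn1 (0.61) and Actg2 (0.48) were also positive and did not pass. Leukocyte sums were 19.9 to 30.1 and 31.4 to 52.2 FPKM, and Csf1r alone of 3 tested genes was higher past the threshold. Its log2 difference was 0.64, against 0.82 for Cd68 and -0.16 for Ptprc, which did not pass. The part of these markers in the differences of the retinoid genes was not tested.

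Control 2 carried a high level of Ovgp1, the oviductal glycoprotein gene, at 291 FPKM against 1.65 to 19.7 FPKM in the other 6 libraries. The oviduct list of 3 genes summed to 28.8, 318 and 37.4 FPKM in controls 1, 2 and 4 and 44.3 to 51.9 FPKM in the other group. Of these genes, Pax8 was higher and Foxj1, a ciliated-cell gene, lower past the threshold. Pax8, at 25.1 FPKM in control 1 and 28.9 to 40.2 FPKM in the libraries labelled Foxl2LsL, made up most of the sum in these libraries. There the sum thus mostly restates the level of Pax8. Among controls, Aldh1a2 and Rdh10 were highest in control 2. Without control 2 their log2 differences were -2.06 and 0.90. Of 5 mesothelial markers, Wt1 alone was lower past the threshold. Their sums were 82.1 to 138 FPKM in controls and 85.5, 70.9, 42.3 and 109 FPKM in the libraries labelled Foxl2LsL 1 to 4. The last of these is the library with the highest Aldh1a2 of its group, while control 1, with the highest mesothelial sum, had the lowest Aldh1a2 of the controls. The part of oviduct or mesothelial RNA in the levels of the retinoid genes was not tested. Ovarian markers stayed at 4.76 to 9.81 FPKM in sum, mostly Inha.

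**Figure D4:**
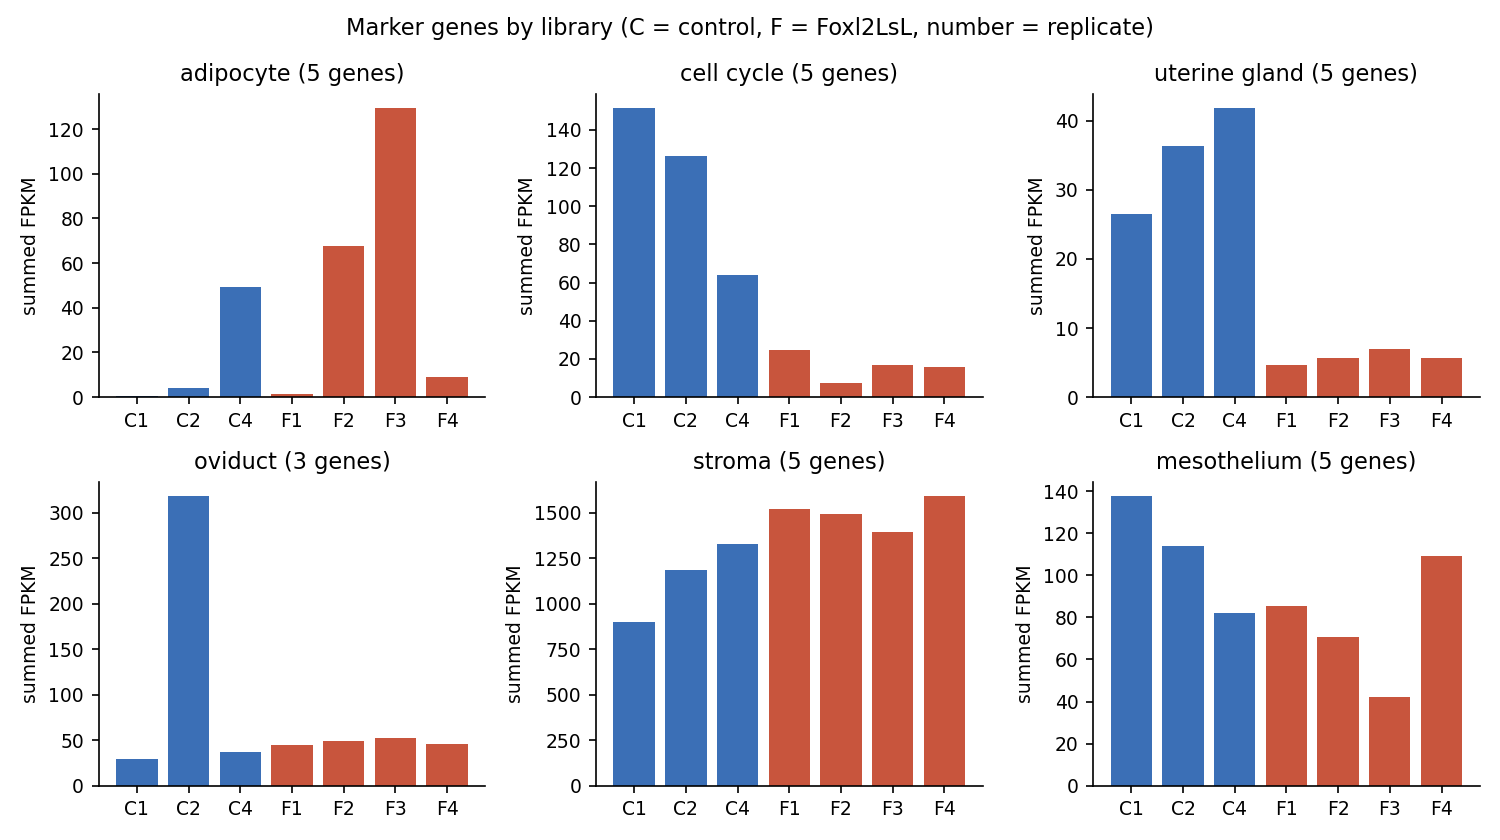
Summed FPKM of marker genes in each library for 6 lists, with blue bars for controls (C) and red bars for libraries labelled Foxl2LsL (F). The cell cycle and gland sums are separate between the groups, the adipocyte sum is high in C4, F2 and F3 (49.2, 67.9 and 129), and the oviduct sum stands out in C2 (318).

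**Figure D5:**
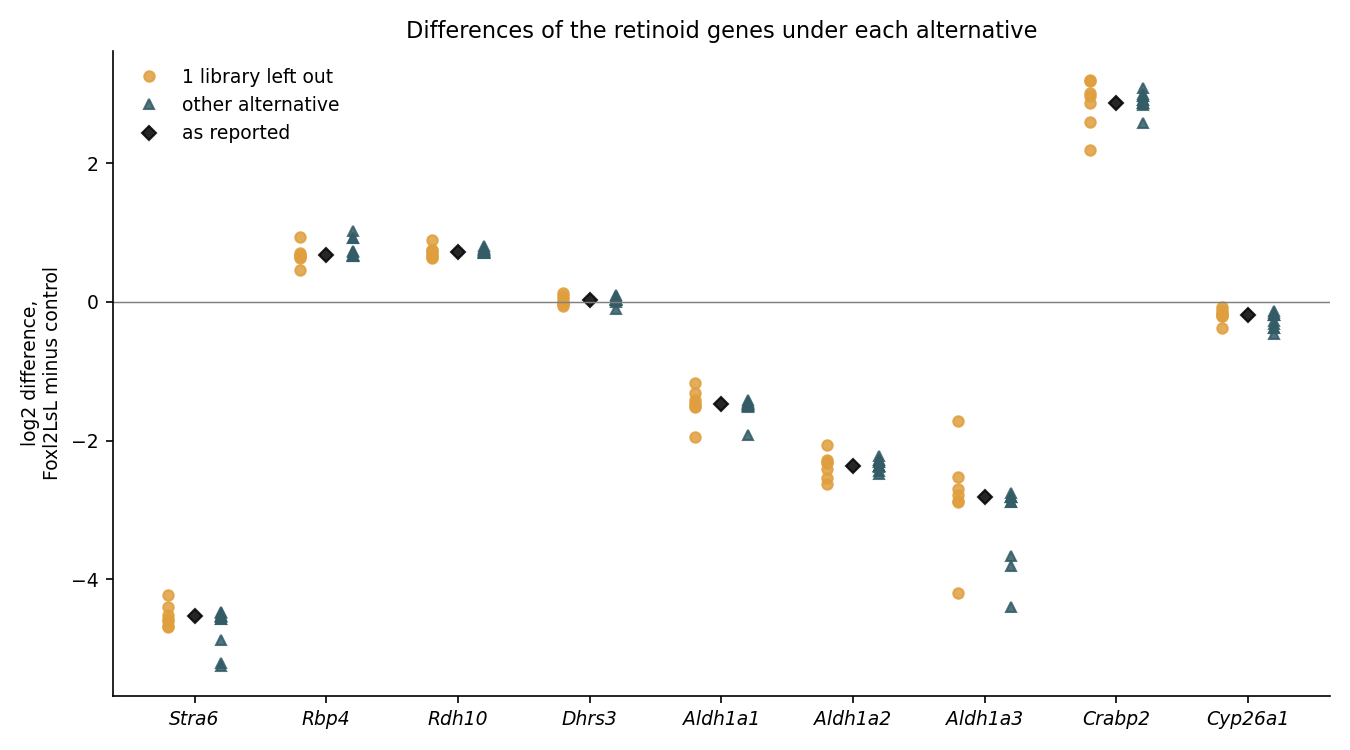
Log2 difference of each retinoid gene as reported (diamond), with 1 library left out (circles) and under the other alternatives (triangles). Stra6 stays between -5.26 and -4.23 and Crabp2 between 2.20 and 3.20, while Aldh1a3 spans -4.40 to -1.72 and Dhrs3 lies on both sides of 0.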

How the data were processed

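RNA was measured in 7 uterus libraries (3 controls and 4 labelled Foxl2LsL). Per the labels' protocols, RNA was extracted with TRIzol and libraries followed standard Illumina protocols. The authors deposited 1 table of FPKM values for 24964 gene symbols, 1 column per library, with gene length in bases per the file headers. The submitters' processing notes name STAR 2.5.2b, featureCounts 1.5.0-p1, Subread, DESeq2 1.12.4 and the build mm10, without roles; the annotation and use of strand are not given in the sources used here. FPKM divides by the whole library, so a strong rise of some genes lowers others.

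FPKM times length fell on whole multiples of 1 step per library (100% of 1646 to 1819 low values within 0.1 of a whole number), which gave the fragments behind each value. Counting intervals cover counting error only. Chi-square per gene between libraries of a group was 21.4 to 203, more than counting noise allows for copies.

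The 13334 genes whose mean FPKM was 1 or more (11630 others were left out) were compared on log2(FPKM + 1) with limma 3.58.1 (intensity trend) in R 4.3.3, with Benjamini-Hochberg adjustment over all of them and a threshold of 0.05. On simulated data for these 13334 genes, 200 genes were given log2 changes of 1.5, of which 191 passed with the correct sign, and 13 unchanged genes passed. The noise was drawn independently for each gene, and genes of the lowest levels were not among those changed. The rate therefore does not carry over to smaller differences, to low genes or to spread shared between genes. The changed genes were also a far smaller share than the 40.6% that passed in the data. The number of unchanged genes that passed therefore does not carry over either. Python 3.11.15, pandas 2.3.3 and matplotlib 3.10.9 were used for sequences and figures. Coordinates came from GENCODE M21 (GRCm38), in which no exon of the 9 genes overlaps another gene's exon, and promoter windows from RefSeq (GRCm38.p6).

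The members and lists were chosen with earlier results of these data known. Named were all 9 genes, up to 4 genes past the threshold per role with the largest difference, every receptor, and the 5 genes most like Stra6. An item of the pathway list is not reported here. Replicate numbers are not stated to pair animals, so no block was used. Alternatives covered scaling, pseudocount, filters, the trend, limma-voom, a replicate block and leaving out libraries.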

Additional observations from a re-analysis of the deposited data

Results flagged for a closer look

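Among the 4 libraries labelled Foxl2LsL, single values far from the other 3 were looked for in 29 genes, by the gap to the nearest value over the range, and chance alone picks out about 1 group in 20. Aldh1a2 stood at 12.2 FPKM in library 4, with the others at 6.79 to 7.45 FPKM (gap 0.877 of the range). Bco2 stood at 1.53 FPKM in library 1, with the others at 3.50 to 3.58 FPKM (gap 0.96 of the range).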

How the results depend on the processing

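Results were recomputed under 18 alternatives, 2 of them chosen after seeing the data (without the 3 libraries of most adipocyte signal, and libraries 1, 2 and 4 without a block). Values of the 9 genes under them are a description, since the contrast helped to choose the genes. The number of the 9 genes past the threshold was 6, and 5 to 7 when libraries were left out singly. The number of pathway genes was 23, and 16 (without Foxl2LsL 4) to 21 in those fits. A filter at mean FPKM 5 left 22 pathway genes to test, of which 14 passed. Over all genes 5409 passed, and 3840 to 5318 without 1 library. Separate neighbouring pairs in the control order numbered 2, and 2 to 3 without 1 control. The log2 difference of Dhrs3 (0.02) was -0.095 without the 3 libraries of most adipocyte signal, and across the fits without 1 library it was -0.053 to 0.13. That of Rxrb (-0.04) was 0.014 with median centring, 0.016 with quantile normalization, 0.032 with limma-voom and -0.070 to 0.012 without 1 library. For these the cause was not tested. Rbp4 also lost its call with no filter on low values (0.68), where more genes were tested. Cyp26a1 passed in 1 alternative, at -0.47 without the 3 libraries of most adipocyte signal. With a replicate block on libraries 1, 2 and 4, 3243 genes and 5 of the 9 passed, against 3975 and 5 without the block in the same libraries. Scarb1 (-0.36) and Rara (0.43) did not pass with the block (limma, Benjamini-Hochberg adjusted p 0.0692 and 0.0741) and passed without it in those libraries (0.0267 and 0.0429), while Bco2 (0.81) and Hoxb5 (0.48) passed in those libraries with the block and not without it. Deviations of same-numbered libraries correlated at 0.23, -0.03 and -0.11 for numbers 1, 2 and 4, and number 1 alone matched its own number best. With so few libraries these values cannot decide whether the numbers pair the libraries. In controls 3 libraries, and in the other group 4, limit the precision, while depth does not limit the 9 genes.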
